A study of Mus musculus with 16 samples.

Results

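The genes described here are 10 mouse enzymes and cofactors that write or remove 2 repressive chromatin marks. They are the core subunits of Polycomb repressive complex 2 (PRC2), namely Ezh1, Ezh2, Eed and Suz12, the DNA methyltransferases Dnmt1, Dnmt3a and Dnmt3b, and the TET dioxygenases Tet1, Tet2 and Tet3. They were taken by symbol from the 32989 genes of the count table, not by a cutoff on their values. The set was chosen with earlier results of these data known. All 10 were among the 19049 genes that passed the low-count filter (5 or more counts per library on average). The study compared hair follicle stem cells (HFSCs) with their progeny in organoids, and asked what an acetylated polyamine does to both. Epidermal cells of C57BL/6J mice formed organoids in 3D–3C culture, which lasted 2 weeks, and were sorted by integrin α6 and CD34 into α6+CD34+ HFSCs and α6+CD34- progenitors, with or without N1-acetylspermidine (N1-AcSpd) for 72 h. RNA was read from its 3′ end, and each captured molecule was counted once through a short random tag, its unique molecular identifier (UMI). Each of 4 mice gave 1 library to each of the 4 groups, untreated CD34- cells, untreated CD34+ cells, N1-AcSpd CD34- cells and N1-AcSpd CD34+ cells. The labels give no genetic change, and the untreated libraries are titled WT. According to the methods, epidermal cells came from mice of either sex in telogen, the resting phase of the hair cycle. Both sorted fractions come from the same culture.

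PRC2 places methyl groups on lysine 27 of histone H3, a mark that keeps developmental genes off. Ezh2 and its relative Ezh1 are the alternative catalytic subunits, Eed binds the finished mark and Suz12 holds the complex together. Methylation of cytosine in DNA is copied at replication by Dnmt1 and set anew by Dnmt3a and Dnmt3b, and the TET enzymes oxidise it as a step towards its removal. In epidermis, Ezh2 is known to hold back terminal differentiation genes in basal progenitors, Ezh1 and Ezh2 act together in hair follicles, and Dnmt1 is known to retain progenitors in a dividing, undifferentiated state.

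The libraries held between 15480075 and 29074855 UMIs. The sort was visible in its own marker: Cd34 lay between 2.87 and 3.65 CPM (UMI counts relative to the library total, scaled by TMM) in the CD34- libraries and between 43.4 and 64.0 CPM in the CD34+ libraries. The 5 basal keratinocyte markers summed to between 5787 and 7023 CPM in every library. Summed over 6 fibroblast markers the level was between 0.171 and 1.52 CPM, and over 5 immune markers between 0.0380 and 2.08 CPM. The 6 melanocyte markers summed to between 28.0 and 36.1 CPM, with Tyr at 0 in all untreated CD34- libraries and Tyrp1 at 0 in all CD34+ libraries of both treatments. The other melanocyte markers were found in every group. Group means were 18.4 to 23.1 CPM for Mitf, 9.87 to 10.6 CPM for Pmel, 0.295 to 0.556 CPM for Mlana and 0.127 to 0.482 CPM for Dct. Of the 3 endothelial markers, Pecam1 stood at a mean of 1985, 1816, 1925 and 1755 CPM in untreated CD34-, untreated CD34+, N1-AcSpd CD34- and N1-AcSpd CD34+ cells. Kdr stood at a mean of 0.0108 to 0.0899 CPM and Tie1 at a mean of 0.185 to 0.367 CPM over these groups. The source of the counts at Pecam1 was not tested. Some of these markers differed with the sort. Col1a2, a collagen of fibroblasts, was called lower in HFSCs at -2.19 (SE 0.749) and -2.25 (SE 0.715), on a mean of 5.56 counts, a call lost in untreated cells by DESeq2 (adjusted p = 0.0586) and with the mouse as a block (adjusted p = 0.0503). The fibroblast sum had a mean of 0.944 CPM in progenitors and 0.448 CPM in HFSCs untreated and of 1.01 and 0.426 CPM with N1-AcSpd. Pecam1 was called lower at -0.13 (SE 0.0338) in both treatments. Mitf, a regulator of melanocytes, was called higher in untreated cells, at 0.28 (SE 0.0578), with means of 19.0 and 23.1 CPM. The part of such cells in the results below was not tested. In bulk libraries a lower share of a cell type and less RNA per cell of that type cannot be told apart.

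Dnmt1 was higher in CD34+ HFSCs than in CD34- progenitors in both treatments, by 1.55 times in untreated and 1.53 times in N1-AcSpd cells. Ezh1 passed the test in untreated cells and Ezh2 in N1-AcSpd cells, both higher in HFSCs, by 1.35 and 1.45 times. Eed, Suz12, Dnmt3a, Dnmt3b and the TET genes did not pass in either treatment in this fit, which left the mouse out. With the mouse as a block in edgeR, Ezh2 passed in untreated cells too (adjusted p = 0.00557), as did Dnmt3a in N1-AcSpd cells (adjusted p = 0.0236). The Ezh1 call was lost in 8 of the 20 fits that left out a library or a mouse. In untreated cells, 2 of the 10 genes were called at an adjusted p under 0.05 (edgeR quasi-likelihood test, Benjamini-Hochberg over all genes tested), against 32.1% of all genes, and in N1-AcSpd cells again 2 of 10, against 33.3%. The members were thus called no more often than genes at large. Those called were higher in HFSCs, a direction that took 16.1% of all genes without and 16.5% with N1-AcSpd. The opposite direction, to which no member was called, took 16.1% and 16.8% of all genes. The median log2 fold change of the 10 genes was 0.05 in untreated and 0.11 in N1-AcSpd cells, beside 0.022 and -0.007 over all genes.

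**Figure D1:**
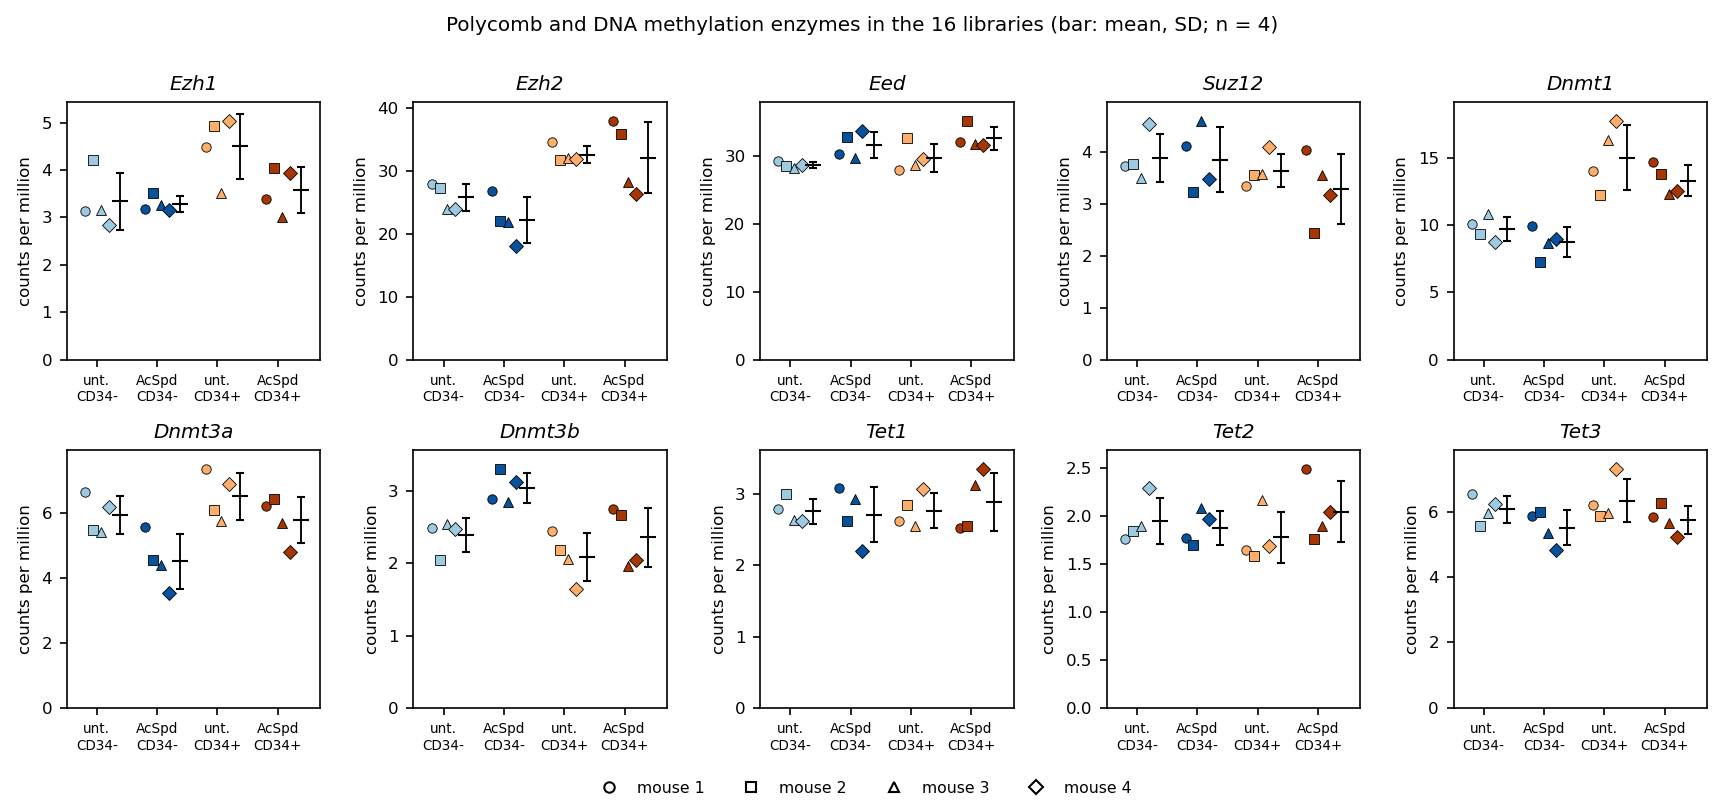
CPM of each of the 10 genes in every library (symbols, 1 shape per mouse), with the mean and SD of each group of 4 libraries beside them; unt. is untreated, AcSpd is N1-AcSpd, and each vertical axis starts at 0. Dnmt1 separates the cell types without overlap, from 7.24 to 10.8 CPM in CD34- and from 12.2 to 17.7 CPM in CD34+ libraries, while the TET genes overlap in all groups.

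Dnmt1 (ENSMUSG00000004099), which copies DNA methylation onto the new strand, lies on the minus strand at chr9:20907209-20959888 (GRCm38, GENCODE M21). In untreated CD34- cells it stood at 10.1, 9.32, 10.8 and 8.70 CPM in mice 1 to 4, and in untreated CD34+ cells at 14.0, 12.2, 16.3 and 17.7 CPM. In N1-AcSpd CD34- cells it stood at 9.94, 7.24, 8.66 and 8.98 CPM, and in N1-AcSpd CD34+ cells at 14.7, 13.8, 12.3 and 12.5 CPM. Every HFSC library lay above every progenitor library, within and across treatments. The log2 fold change of CD34+ over CD34- was 0.63 (SE 0.119, 95% interval 0.37 to 0.89, adjusted p = 0.00115) in untreated cells and 0.61 (SE 0.119, 0.36 to 0.87, adjusted p = 0.00115) in N1-AcSpd cells. Both calls held in each of the 20 fits that left out a library or a mouse, with values between 0.49 and 0.72 in untreated and between 0.52 and 0.68 in N1-AcSpd cells.

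Ezh2 (ENSMUSG00000029687), the PRC2 methyltransferase of dividing cells, lies on the minus strand at chr6:47530139-47595341. In untreated CD34- cells it stood at 28.0, 27.3, 24.0 and 23.9 CPM in mice 1 to 4, and in untreated CD34+ cells at 34.6, 31.8, 32.1 and 31.9 CPM. These groups did not overlap, yet the log2 fold change of 0.34 (SE 0.125, 95% interval 0.07 to 0.61) missed the threshold, with an adjusted p of 0.0534 by edgeR. With the mouse as a block in the fit the same difference passed, with an adjusted p of 0.00557, and it also passed with DESeq2 (adjusted p = 0.0496). In N1-AcSpd cells the progenitors stood at 26.8, 22.1, 21.9 and 18.0 CPM and the HFSCs at 37.9, 35.9, 28.3 and 26.4 CPM. HFSCs were higher within each of the 4 mice, and the groups overlapped only through the progenitors of mouse 1 and the HFSCs of mouse 4. The log2 fold change was 0.53 (SE 0.125, 0.26 to 0.80, adjusted p = 0.00435 by edgeR). Without the libraries of mouse 2 it was 0.47 with an adjusted p of 0.0569.

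Ezh1 (ENSMUSG00000006920), the catalytic subunit found also in resting cells, lies on the minus strand at chr11:101191115-101226463. Its counts were low, between 49 and 99 UMIs per library. It stood at 3.14, 4.21, 3.16 and 2.84 CPM in untreated CD34- cells and at 4.49, 4.93, 3.52 and 5.03 CPM in untreated CD34+ cells, so that HFSCs were higher in each mouse while the groups overlapped. The log2 fold change was 0.43 (SE 0.139, 95% interval 0.14 to 0.73, adjusted p = 0.0278 by edgeR). This call was lost in 8 of the 20 fits that left out a library or a mouse. They were the fits without untreated CD34- replicate 1, 3 or 4, without untreated CD34+ replicate 1, 2 or 4, and without mouse 1 or mouse 4, and over all 20 fits the value lay between 0.30 and 0.56. In N1-AcSpd cells Ezh1 stood at 3.18, 3.51, 3.27 and 3.16 CPM in progenitors and 3.38, 4.04, 3.01 and 3.93 CPM in HFSCs, with a log2 difference of 0.13 (SE 0.138, -0.17 to 0.43, adjusted p = 0.547 by edgeR). The fold changes of Ezh1 in untreated and N1-AcSpd cells were not shown to differ, since the interaction was -0.30 (SE 0.196, -0.72 to 0.12, adjusted p = 1.00 by edgeR).

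The partners of the catalytic subunits did not pass the test between cell types. Eed (ENSMUSG00000030619, chr7:89954654-89980983, minus strand), the subunit that reads the mark, ranged from 28.0 to 35.2 CPM over the 16 libraries with a log2 difference of 0.05 between cell types in either treatment (95% interval -0.07 to 0.17 in both). Suz12 (ENSMUSG00000017548, chr11:79993106-80034123, plus strand), the scaffold, ranged from 2.45 to 4.60 CPM, with a log2 fold change of -0.09 (SE 0.150, 95% interval -0.41 to 0.23) without and -0.22 (SE 0.150, -0.54 to 0.10) with N1-AcSpd. With N1-AcSpd it was lower in HFSCs in each of 4 mice. Its counts were between 43 and 121 UMIs per library, and its intervals do not exclude a larger difference.

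The methyltransferases that set new methylation did not pass the test. Dnmt3a (ENSMUSG00000020661, chr12:3806007-3914443, plus strand) gave a log2 difference of 0.13 (SE 0.133, adjusted p = 0.520 by edgeR) in untreated cells and 0.36 (SE 0.133, 95% interval 0.07 to 0.65, adjusted p = 0.0526) in N1-AcSpd cells. With the mouse as a block the latter passed, with an adjusted p of 0.0236. Dnmt3b (ENSMUSG00000027478, chr2:153649450-153687730, plus strand) was the one enzyme with lower means in HFSCs in both treatments among the methyltransferases, with log2 fold changes of -0.20 (SE 0.140, adjusted p = 0.317 by edgeR) and -0.36 (SE 0.138, -0.66 to -0.06, adjusted p = 0.0593). In N1-AcSpd cells its progenitor libraries, at 2.89, 3.30, 2.85 and 3.12 CPM, all lay above its HFSC libraries, at 2.75, 2.67, 1.96 and 2.05 CPM. Its counts were between 32 and 93 UMIs per library.

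The TET genes, which start the removal of DNA methylation, showed no detectable difference between the cell types at this depth. Tet1 (ENSMUSG00000047146, chr10:62804570-62908996, minus strand) ranged from 2.21 to 3.35 CPM, Tet2 (ENSMUSG00000040943, chr3:133463679-133545139, minus strand) from 1.59 to 2.49 CPM and Tet3 (ENSMUSG00000034832, chr6:83362373-83459084, minus strand) from 4.84 to 7.29 CPM over the 16 libraries. Their log2 fold changes in untreated cells were 0.01 (95% interval -0.25 to 0.27), -0.14 (-0.48 to 0.21) and 0.06 (-0.16 to 0.28). In N1-AcSpd cells they were 0.09 (-0.28 to 0.46), 0.13 (-0.17 to 0.42) and 0.06 (-0.13 to 0.25). The narrowest of these intervals, that of Tet3 in N1-AcSpd cells, still allows a log2 difference of 0.25.

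Some members share their locus with another annotated gene, and whether strand was used in counting is not given in the sources used here. Gm48353, on the same strand as Tet1, held 47.7 to 73.3% as many counts as Tet1 per library. Gm45120, on the same strand as Eed, held 12.9 to 22.4% as many as Eed. On the opposite strand, Gm26625 held 8.89 to 16.6% as many counts as Ezh2 and Gm26563 held 11.6 to 40% as many as Suz12. How reads were divided within these pairs is uncertain.

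**Figure D2:**
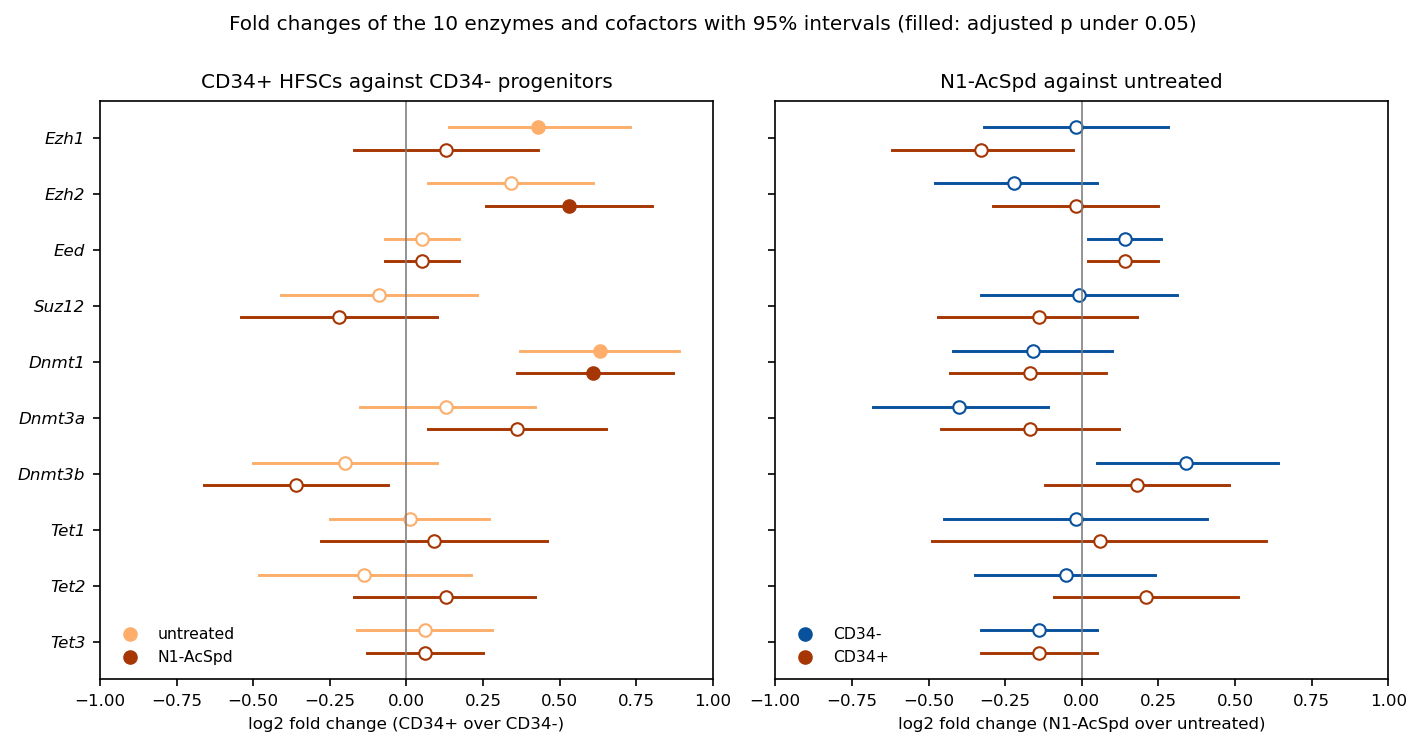
Log2 fold change (points) and 95% interval (lines) of each of the 10 genes, for CD34+ over CD34- cells on the left and for N1-AcSpd over untreated cells on the right; filled points have an adjusted p under 0.05. The filled points are Ezh1 in untreated cells, Ezh2 in N1-AcSpd cells and Dnmt1 in both, and no point is filled for the treatment.

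The start-site regions of the genes were read for the E2F-type motif, since E2F factors are known to drive genes of DNA replication at the entry into S phase. The letters searched were TTTCCCGC, TTTCGCGC, TTTGCCGC and TTTGGCGC, on both strands, in RefSeq windows of 250 bases before to 50 bases after each start site (GRCm38.p6), and all 10 genes matched a window. Any of the 4 motifs was found in 744 of 32851 windows, or 2.26%. By gene, 2.6% of all 27025 genes had such a window, as did 3 of the 10 members, Ezh2, Dnmt1 and Suz12. Of the S phase genes with a window, 12 of 31 had one. All 4 sites found in members are given, each read 5′ to 3′ on the strand of the gene with the motif in capitals.
Ezh2, chr6:47595009-47595038, minus strand, motif from base 4, counting the start site as 1: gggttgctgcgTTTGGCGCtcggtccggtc
Dnmt1, chr9:20952574-20952603, minus strand, motif from base 34: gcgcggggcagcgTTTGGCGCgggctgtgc
Dnmt1, chr9:20952824-20952853, minus strand, motif in reverse and 219 bases before the start site: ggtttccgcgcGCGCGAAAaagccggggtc
Suz12, chr11:79992876-79992905, plus strand, motif 219 bases before the start site: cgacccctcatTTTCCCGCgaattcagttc
Ezh2 and Dnmt1 share the letters TTTGGCGC just after a start site, found in 0.514% of all windows. Dnmt1 has 3 windows, of which 1 holds its sites. Suz12 carries TTTCCCGC, found in 1.07% of windows, and did not pass the test in either treatment. Ezh1, called in untreated cells, has no match in its window. A match is a run of letters and was not tested as a binding site. The motif was chosen with earlier results of these data known. The share among the members was not tested against that of all genes, whose windows were not matched for base composition.

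Cell cycle genes moved in the same direction as Dnmt1 and Ezh2. Of 43 S phase genes, 28 were called higher and 3 lower in untreated HFSCs, and 30 higher and 3 lower in N1-AcSpd HFSCs, with median log2 fold changes of 0.30 and 0.39. Of 52 genes of G2 and mitosis, 36 were called higher and 1 lower in untreated cells and 46 higher and none lower in N1-AcSpd cells, with medians of 0.51 and 0.70. Over all genes, 16.1% were called higher and 16.1% lower in untreated cells, and 16.5% and 16.8% in N1-AcSpd cells. The changes of the S phase genes were mostly small: asked also to exceed a log2 fold change of 0.5, the calls went from 31 to 4 in untreated and from 33 to 8 in N1-AcSpd cells. The G2 and mitosis calls in untreated cells went from 37 to 16 without mouse 3 and to 21 without mouse 1. Among them, Nusap1, a spindle protein, had log2 fold changes of 0.96 (SE 0.117) and 1.25 (SE 0.118), and Prim1, a subunit of primase, 0.65 (SE 0.0644) in N1-AcSpd cells. Pola1, a subunit of DNA polymerase α, went the other way, at -0.87 (SE 0.0775) and -0.82 (SE 0.0774). Summed over the S phase list, the level lay between 926 and 975 CPM in untreated progenitors and between 1004 and 1082 CPM in untreated HFSCs. With N1-AcSpd it lay between 934 and 1038 CPM in progenitors and between 1124 and 1163 CPM in HFSCs. Neither Ezh2 nor Dnmt1 belongs to these lists, and the part of the cell cycle in their differences was not tested.

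**Figure D3:**
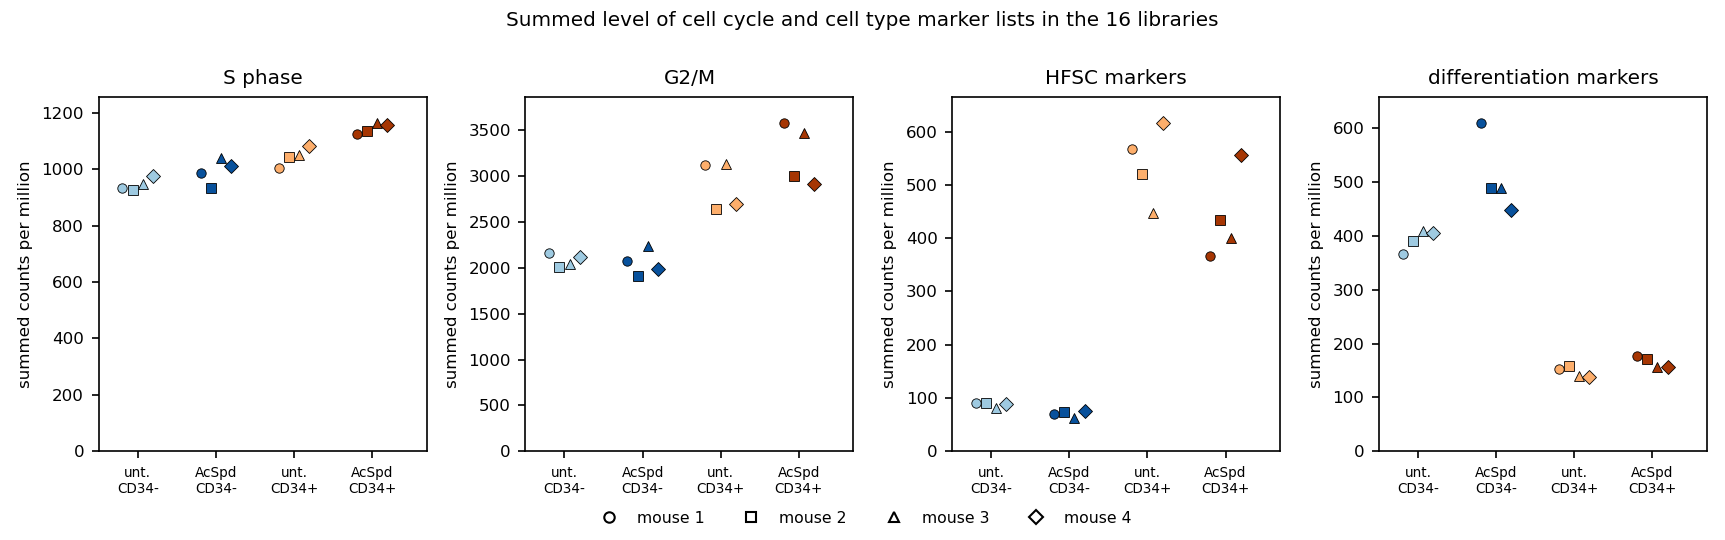
Summed CPM of the S phase, G2/M, HFSC marker and differentiation marker lists in every library (symbols, 1 shape per mouse), with each vertical axis starting at 0. All 4 lists separate CD34- from CD34+ libraries within each treatment, the first 3 upwards in CD34+ and the differentiation markers downwards. The HFSC marker list includes Cd34, on which the cells were sorted. Single genes carry much of some sums. In untreated CD34+ cells Krt15 had a mean of 393 CPM in an HFSC marker sum of 538 CPM. In untreated CD34- cells Sbsn had 336 CPM in a differentiation marker sum of 392 CPM. Hmgb2 had 589 CPM in untreated CD34- and 1061 CPM in untreated CD34+ cells, where the G2/M sums were 2085 and 2899 CPM.

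Markers of the states themselves moved with the sort. Of 6 HFSC markers 5 were called higher in CD34+ cells in either treatment, Krt15, a keratin of the bulge, with log2 fold changes of 3.35 (SE 0.149) and 3.31 (SE 0.149), and all 6 differentiation markers were called lower, Ivl, a precursor of the cornified envelope, at -1.75 (SE 0.139) and -1.74 (SE 0.138). Cd34, on which the cells were sorted, is among the 6 HFSC markers, so its difference was set by the sort.

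The other subunits of PRC2 divided by direction. Of 9 accessory subunits 7 were tested, and in both treatments 2 were called higher and 3 lower in HFSCs. All genes were also divided, with 16.1% called higher and 16.1% lower in untreated cells, and 16.5% and 16.8% in N1-AcSpd cells. The histone-binding proteins Rbbp4 and Rbbp7, which serve several chromatin complexes, were higher. Rbbp4 rose from a mean of 50.9 ± 1.71 to 66.0 ± 2.15 CPM (SD, n = 4) in untreated cells, a log2 fold change of 0.37 (SE 0.0410), and by 0.43 (SE 0.0410) in N1-AcSpd cells. Rbbp7 rose by 0.18 (SE 0.0464) and 0.21 (SE 0.0464). Jarid2, which helps bring PRC2 to its targets, fell from 8.82 ± 0.903 to 4.95 ± 0.493 CPM (SD, n = 4) in untreated cells, a log2 fold change of -0.83 (SE 0.106), and had -0.88 (SE 0.106) in N1-AcSpd cells. Epop, a PRC2 partner that also binds elongin, had -0.53 (SE 0.0787) and -0.60 (SE 0.0784). Aebp2, which shares a form of the complex with Jarid2, had -0.47 (SE 0.0885) and -0.27 (SE 0.0882) and was picked for mention after its values were seen. The list's median log2 fold change was -0.28 without and -0.20 with N1-AcSpd. Asked also to exceed a log2 fold change of 0.5, 2 of the 5 calls were left in each treatment.

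PRC1, the companion complex that places ubiquitin on histone H2A, was measured through 20 subunits, of which 19 were tested. In untreated cells 4 were called higher and 2 lower in HFSCs, and in N1-AcSpd cells 2 higher and 2 lower, with list medians of 0.17 and 0.08. As a baseline, 32.1% of all genes passed this test without N1-AcSpd, 16.1% in each direction. With N1-AcSpd the baseline was 33.3%, made up of 16.5% higher and 16.8% lower. PRC1 subunits thus passed no more often than genes at large. Cbx6, a chromodomain reader of the Polycomb mark, stood at 2.63 ± 0.537 CPM in untreated progenitors and 8.38 ± 0.680 CPM in untreated HFSCs (SD, n = 4). Its log2 fold changes were 1.68 (SE 0.166, adjusted p = 4.70e-06 by edgeR) and 1.63 (SE 0.166, adjusted p = 5.51e-06), larger in size than those of any other tested PRC1 subunit. Scmh1 was higher by 0.32 (SE 0.0601) and 0.37 (SE 0.0600). Rybp, which marks the variant forms of PRC1, had -0.81 (SE 0.0776) and -0.71 (SE 0.0775), and Pcgf2, which marks a canonical form, had -0.39 (SE 0.0688) and -0.47 (SE 0.0686). The further subunits called in untreated cells, named after their values were seen, were Cbx7 at 1.31 (SE 0.240, a mean of 19.8 counts) and Rnf2 at 0.28 (SE 0.0963, adjusted p = 0.0389 by edgeR and 0.0546 by DESeq2), and neither passed in N1-AcSpd cells. With a log2 fold change over 0.5 also required, the calls in the list were 3 and 2.

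The enzymes that take Polycomb marks off gave few calls. None of the 5 was called in untreated cells, where 4 had an unadjusted p under 0.05 and DESeq2 called 0. The share called over all genes was 32.1% there and 33.3% in N1-AcSpd cells. In N1-AcSpd cells Kdm6b, a demethylase of the PRC2 mark, was lower in HFSCs, its log2 value being -0.30 (SE 0.104, adjusted p = 0.0376 by edgeR, 0.0634 by DESeq2), and Asxl2, a partner of the deubiquitinase Bap1, likewise at -0.30 (SE 0.0795, adjusted p = 0.0103 by edgeR). The list's medians were 0.17 and 0.09. The count of 2 in N1-AcSpd cells was 2 or 3 in 10 of the 20 fits that left out a library or a mouse, 0 without mouse 1, 2 or 4, and 1 in the remaining fits. It was 1 with library totals, no filter, DESeq2 or thinned counts and 0 with a log2 fold change over 0.5 also required, while the untreated count was 3 with library totals.

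Partners of DNA methylation were measured through 14 genes with a row in the table, all tested, of which 3 were called higher and 3 lower in either treatment, with medians of 0.04 and 0.19. Over all genes 16.1% were called higher and 16.1% lower in untreated cells, and 16.5% and 16.8% in N1-AcSpd cells. The untreated count of 6 was 1 without mouse 4, 2 without mouse 1 or mouse 3 and 3 without untreated CD34+ replicate 4, and the N1-AcSpd count of 6 was 3 without mouse 1. With the mouse as a block the counts were 8 and 7, and with a log2 fold change over 0.5 also required they were 3 and 2. Uhrf1, which guides Dnmt1 to newly copied DNA, rose in HFSCs by 0.31 (SE 0.106, adjusted p = 0.0366 by edgeR) in untreated and by 0.48 (SE 0.107, adjusted p = 0.00287) in N1-AcSpd cells, the same direction as Dnmt1. Its relative Uhrf2 rose by 0.37 (SE 0.132) and 0.49 (SE 0.132), though DESeq2 gave it an adjusted p of 0.0510 in untreated cells. Gadd45b, a stress gene linked to active demethylation, had -0.77 (SE 0.105) and -0.87 (SE 0.104). Its relative Gadd45a had -0.49 (SE 0.140) in N1-AcSpd cells and, uncalled, -0.37 (SE 0.140, adjusted p = 0.0583 by edgeR) in untreated cells, where it passed with the mouse as a block (adjusted p = 0.00142) and by DESeq2 (adjusted p = 0.0357), and Tdg, the glycosylase that excises oxidised methylcytosine, had -0.16 (SE 0.0421) in untreated cells. The remaining called genes, named after their values were seen, were the repair glycosylase Mbd4 at 0.62 (SE 0.185) in untreated cells, the methyl-binding protein Mbd1 at 0.31 (SE 0.0947) in N1-AcSpd cells, and Dnmt3l, an inactive cofactor of Dnmt3a, at -1.61 (SE 0.459) and -1.36 (SE 0.438) on a mean of 7.31 counts. Uhrf1 is also counted in the S phase list.

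**Figure D4:**
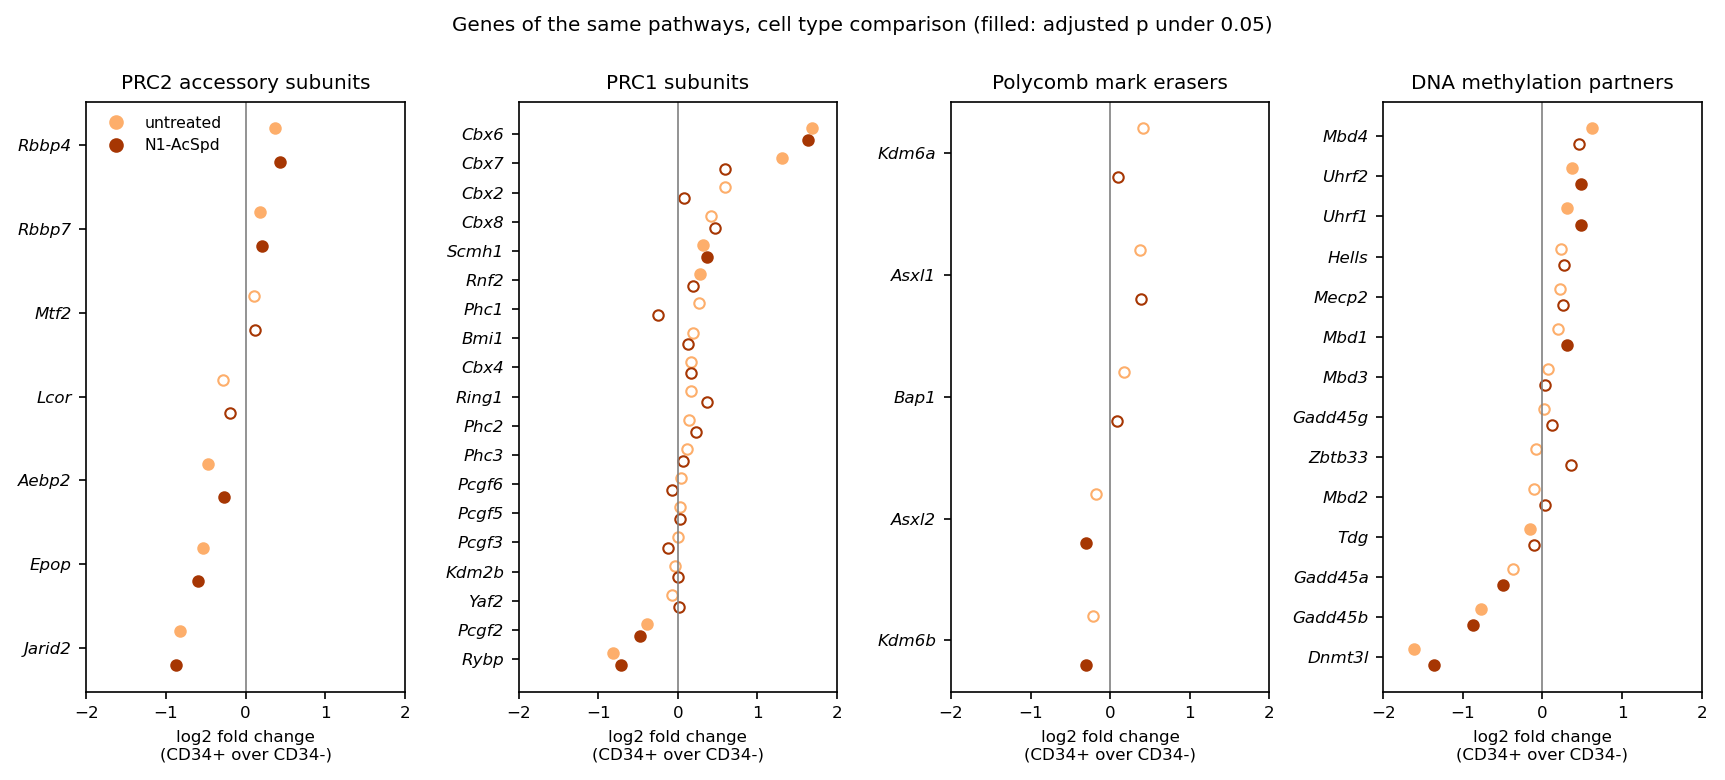
Log2 fold change of CD34+ over CD34- cells for each tested gene of 4 lists, in untreated (light) and N1-AcSpd cells (dark), with filled points for an adjusted p under 0.05. Rbbp4 and Rbbp7 lie to the right of 0 and Jarid2, Epop and Aebp2 to the left in both treatments, and Cbx6 lies farthest to the right of the PRC1 subunits.

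Genes that the 2 marks are known to keep silent were mostly too low to test. Of 9 textbook Polycomb targets, 5 had a row in the table and 2 passed the filter. Cdkn2b, an inhibitor of the cell cycle, was called lower in HFSCs, with log2 fold changes of -1.02 (SE 0.168) and -1.06 (SE 0.169), and stood at 5.99 ± 0.461 CPM in untreated progenitors and 2.96 ± 0.710 CPM in untreated HFSCs (SD, n = 4). Pax6, the other target tested, was not called in either treatment. Its means were 2.08 ± 0.246 CPM in untreated progenitors and 2.67 ± 0.793 CPM in untreated HFSCs (SD, n = 4). With N1-AcSpd they were 2.64 ± 0.426 and 2.39 ± 0.423 CPM. Sox2 had a mean between 0 and 0.0488 CPM over the groups. Of 8 germline genes known to be silenced by DNA methylation, 5 had a row and 2 were tested. Sycp3 carried almost all of the list's summed level, at a mean of 3186, 2745, 3157 and 2678 CPM in untreated CD34-, untreated CD34+, N1-AcSpd CD34- and N1-AcSpd CD34+ cells, while Ddx4 had a mean between 0 and 0.0420 CPM. Sycp3 was called lower in HFSCs, at -0.21 (SE 0.0356) and -0.24 (SE 0.0356). The source of the counts at this meiotic gene was not tested.

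The genes whose profile over the 16 libraries was nearest to each called member were found by the root mean square distance between centred log2 CPM values, among 9705 genes averaging 50 counts or more. For Dnmt1 these were Kmt2e (0.132) and Slc12a4 (0.139), for Ezh2 Smc3 (0.0917), a cohesin subunit, and Baz2b (0.123), and for Ezh1 Npepl1 (0.0971) and Siah1a (0.101). For scale, the root mean square of the member's own centred values was 0.352 for Dnmt1, 0.282 for Ezh2 and 0.243 for Ezh1. A nearest gene is found for any profile, and these matches were not tested.

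N1-AcSpd changed none of the 10 genes past the threshold in either cell type. In CD34- cells 0 of 10 were called, against 0.614% of all genes, and 3 had an unadjusted p under 0.05, against 13.6% of all genes. In CD34+ cells 0 of 10 were called, against 0.325%, and 2 had an unadjusted p under 0.05, against 13.2%. Averaged over both cell types 0 of 10 were called, against 4.86%, and 4 had an unadjusted p under 0.05, against 20.7%. DESeq2 called 0, 0 and 1 of them, the last being Eed, but it gave no adjusted p for 5 of the 10 in CD34- cells and 7 of the 10 in CD34+ cells, so that its 0 covers only 5 and 3 genes there. The median log2 fold change of the members was -0.04 in CD34- cells, -0.08 in CD34+ cells and -0.10 on average, beside 0.000, -0.014 and -0.008 over all genes.

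Among the values closest to the threshold, Dnmt3a was lower and Dnmt3b higher with N1-AcSpd in CD34- progenitors. Dnmt3a stood at 6.66, 5.49, 5.41 and 6.18 CPM in untreated and 5.57, 4.54, 4.41 and 3.53 CPM in N1-AcSpd progenitors of mice 1 to 4, lower in each mouse with overlapping groups. Its log2 fold change was -0.40 (SE 0.133, 95% interval -0.68 to -0.11, adjusted p = 0.197 by edgeR). Dnmt3b stood at 2.49, 2.04, 2.55 and 2.48 CPM in untreated and 2.89, 3.30, 2.85 and 3.12 CPM in N1-AcSpd progenitors, higher in each mouse with no overlap. Its log2 fold change was 0.34 (SE 0.137, 0.05 to 0.64, adjusted p = 0.291 by edgeR). In CD34+ cells the same genes gave -0.17 (SE 0.133, -0.46 to 0.12) and 0.18 (SE 0.140, -0.12 to 0.48). Averaged over both cell types, Dnmt3a had -0.28 (SE 0.0942, -0.49 to -0.08, adjusted p = 0.0989 by edgeR), which passed with the mouse as a block (adjusted p = 0.0469), and Dnmt3b 0.26 (SE 0.0980, 0.05 to 0.47, adjusted p = 0.141). These comparisons and the cell type comparison under N1-AcSpd share the N1-AcSpd progenitor libraries, so their values for Dnmt3a and Dnmt3b are not independent.

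Eed was higher with N1-AcSpd in each mouse and in both cell types. It stood at 29.4, 28.6, 28.3 and 28.8 CPM in untreated and 30.3, 32.9, 29.8 and 33.7 CPM in N1-AcSpd progenitors, and at 28.0, 32.7, 28.8 and 29.6 CPM in untreated and 32.2, 35.2, 31.8 and 31.7 CPM in N1-AcSpd HFSCs. The averaged log2 fold change was 0.14 (SE 0.0387, 95% interval 0.05 to 0.22), with an adjusted p of 0.0574 by edgeR, 0.0251 with the mouse as a block and 0.0147 by DESeq2. Ezh1 in CD34+ cells had -0.33 (SE 0.138, -0.62 to -0.03, adjusted p = 0.338 by edgeR), lower in each of 4 mice, and -0.02 (SE 0.138, -0.32 to 0.28) in CD34- cells. Tet3 averaged -0.14 (SE 0.0625, -0.28 to -0.01, adjusted p = 0.216 by edgeR). Ezh2, Dnmt1, Suz12, Tet1 and Tet2 had intervals that included 0 in every treatment comparison.

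No interaction of cell type and treatment was called for any member, and 0 had an unadjusted p under 0.05. Over all genes the interaction was called for 0% at the adjusted threshold and 4.19% had an unadjusted p under 0.05, while DESeq2 called 72 genes and none of the members. The cell type differences of the members were therefore not shown to depend on N1-AcSpd. Of the tested subunits of PRC2 and PRC1, erasers and methylation partners, the averaged treatment effect was called for 1, Rybp, at 0.21 (SE 0.0546, adjusted p = 0.0476 by edgeR). Over all genes this effect was called for 4.86%. The PRC1 count of 1 was the same in 2 of the 20 fits that left out a library or a mouse, and was 2 without N1-AcSpd CD34+ replicate 4 and 0 in the others. With the mouse as a block it was 2, and the counts of PRC2 accessory subunits and methylation partners went from 0 to 1 and 2.

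Ratios within a library set related enzymes against each other free of scaling, and are given as a description with no test. They compare libraries and were not used to rank the enzymes. The ratio of Dnmt3a to Dnmt3b counts was 2.67, 2.69, 2.12 and 2.49 in untreated progenitors of mice 1 to 4 and 1.93, 1.38, 1.55 and 1.13 in N1-AcSpd progenitors. In HFSCs it was 3.00, 2.77, 2.79 and 4.19 untreated and 2.26, 2.40, 2.91 and 2.34 with N1-AcSpd. The 4 N1-AcSpd progenitor libraries thus lay below the 12 others, with no overlap. Neither gene passed the treatment test in progenitors (adjusted p = 0.197 for Dnmt3a and 0.291 for Dnmt3b by edgeR). Their interactions of cell type and treatment were 0.23 (SE 0.188) and -0.16 (SE 0.286), neither called. How many other gene pairs separate these libraries in this way was not counted. The ratio of Ezh2 to Ezh1 counts had a mean of 7.85 ± 1.06, 7.40 ± 1.30, 6.79 ± 1.17 and 9.07 ± 1.86 (SD, n = 4) in untreated CD34-, untreated CD34+, N1-AcSpd CD34- and N1-AcSpd CD34+ cells, and all groups overlapped. The ratio of Dnmt1 to Dnmt3a counts ran from 1.41 to 1.99 in untreated progenitors and from 1.91 to 2.83 in untreated HFSCs, overlapping at their edges. With N1-AcSpd it ran from 1.59 to 2.55 in progenitors and from 2.14 to 2.60 in HFSCs, which overlapped.

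**Figure D5:**
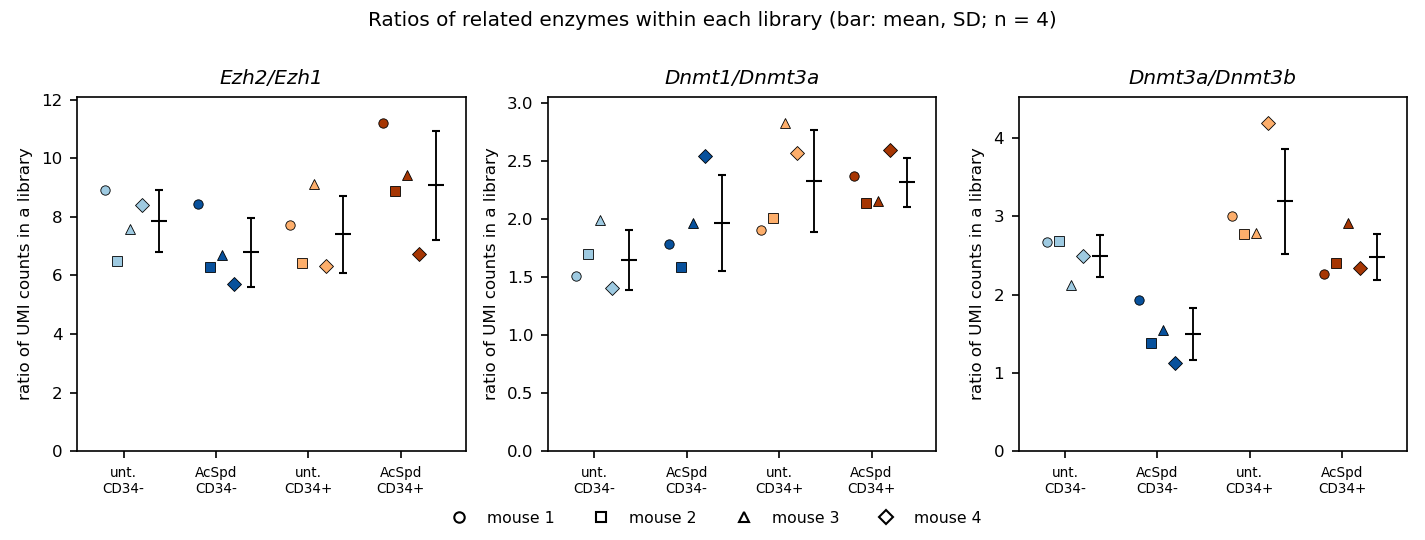
Ratio of the UMI counts of 2 related enzymes within each library (symbols, 1 shape per mouse), with the mean and SD of each group of 4 libraries. The Dnmt3a to Dnmt3b ratio of N1-AcSpd CD34- cells, between 1.13 and 1.93, lies below that of every other library. Neither gene passed the test for the treatment in these cells, and the ratio was not tested.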

How the data were processed

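RNA of 16 libraries was sequenced from the 3′ end with UMIs. According to the methods, the authors split reads with FLEXBAR, placed them on mm10 with kallisto 0.45.0, assigned them to genes with BEDTools and counted unique UMIs in R. The submitters' processing notes also name FastQC 0.11.7 and DESeq2. The deposited values are raw counts per gene and library. The annotation used and the use of strand are not given in the sources used here. Empty cells, of which there were 156050, were read as 0, and 94 rows without a symbol held 0.125% of counts. Symbols and positions are from GENCODE M21, and promoter windows from RefSeq (GRCm38.p6). No protein sequence was used here.

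Counts were tested with edgeR 4.0.16 (R 4.3.3) by its quasi-likelihood test with TMM scaling, in 1 fit of all 16 libraries, on 19049 genes averaging 5 or more counts. Tests were two-sided with Benjamini-Hochberg adjustment and a threshold of 0.05. Standard errors and 95% intervals were derived from the reported p-values. DESeq2 1.42.0 was an alternative, as were other scalings, filters, thinned counts, a fit of the groups compared alone, and 20 fits leaving out each library or mouse. The adjusted p of a comparison with few called genes rests on all genes tested.

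Groups came from the labels, which also name the mouse. As each mouse gave 1 library to each group, its number pairs the libraries. Deviations from the group means correlated between libraries of 1 mouse by 0.0133 on average over 24 pairs (from -0.0689 to 0.0858). Libraries came from separate mice within a group, and no pair of libraries agreed within sampling noise.

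The members, gene lists and motif were chosen with earlier results of these data known. Named were all 10 members, from each list the 2 called genes with the largest change in each direction and comparison among those averaging 50 or more counts and moving one way in 4 of 4 mice, any marker of another cell type as a check, and the 2 genes most like each called member. Outside this rule, Pax6, Sox2, Ddx4 and the genes that overlap a member were named as description. Other genes named outside it are marked where they appear.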

Additional observations from a re-analysis of the deposited data

Results flagged for a closer look

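In 3 of 40 groups of 4 libraries, 10 genes in 4 groups, the highest or lowest library stood apart by Dixon's test at the 95% level, where chance gives about 1 in 20, or 2. Ezh2 was 34.6 CPM in untreated CD34+ replicate 1, above the other libraries of its group. Eed was 35.2 CPM in N1-AcSpd CD34+ replicate 2, above its group. Dnmt3b was 2.04 CPM in untreated CD34- replicate 2, below its group.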

How the results depend on the processing

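Depth limits the low members most, with 29 to 67 UMIs per library for Tet2 and 32 to 93 for Dnmt3b. The calls of Dnmt1 held under all 8 alternative settings in both treatments, with log2 fold changes from 0.61 to 0.75 and from 0.61 to 0.73, and that of Ezh2 in N1-AcSpd cells with 0.53 to 0.65. Ezh1 in untreated cells lost its call with only the groups compared (0.43, adjusted p = 0.0812 by edgeR) and with counts thinned to the smallest library (0.35, adjusted p = 0.131).

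The number of members called in untreated cells went from 2 to 4 with library totals and to 1 with thinned counts, and in N1-AcSpd cells from 2 to 4 with library totals. With a log2 fold change over 0.5 also required, only Dnmt1 was left in untreated cells, as Ezh1 stood at 0.43. Dnmt1 and Ezh2 were both left in N1-AcSpd cells. Library totals moved the median of all genes from 0.022 to 0.137 and from -0.007 to 0.109, and the added calls were Ezh2 at 0.45 and Eed at 0.16 in untreated cells and Eed at 0.16 and Dnmt3a at 0.48 in N1-AcSpd cells. For the averaged treatment effect 1 member was called with DESeq2 size factors, library totals, DESeq2 or thinned counts, in each case Eed, and 2 with the mouse as a replicate block. Leaving out libraries or mice gave 1 to 3 called members in untreated cells, 1 to 3 in N1-AcSpd cells and 0 to 1 for the averaged treatment effect. With the replicate block, the pairing by mouse added Ezh2 in untreated cells and Dnmt3a in N1-AcSpd cells to the calls, and changed no other call of a member but Eed and Dnmt3a in the averaged treatment effect. Over all genes the block raised the calls from 117 to 349 in CD34- cells, from 62 to 152 in CD34+ cells and from 925 to 1551 on average.

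Over the other alternatives, all genes called ranged from 2913 to 6623 in untreated and from 3197 to 6696 in N1-AcSpd cells for the cell type, and for the treatment from 0 to 558 in CD34- cells, from 19 to 423 in CD34+ cells, from 94 to 1585 on average and from 0 to 72 for the interaction. The signs that turned belonged to values near 0 that passed no test. Tet1 in untreated cells was -0.01 with DESeq2 size factors, -0.01 with DESeq2 and -0.05 with thinned counts, and Suz12 was 0.02 there with library totals and 0.06 in CD34- cells for the treatment with thinned counts. For the interaction, Eed was 0.01, 0.00, 0.00 and 0.01, and Tet3 0.01, 0.00, 0.02 and 0.01, and Dnmt1 0.01 and 0.00, under size factors, no filter, the block, DESeq2 or thinning. Leaving out a library or mouse turned signs within these ranges: between cell types in untreated cells 0.00 to 0.09 for Eed, -0.07 to 0.05 for Tet1 and -0.02 to 0.11 for Tet3, and in N1-AcSpd cells -0.08 to 0.22 for Tet1 and -0.01 to 0.21 for Tet2. For the treatment in CD34- cells they were -0.09 to 0.11 for Ezh1, -0.15 to 0.12 for Suz12, -0.09 to 0.06 for Tet1 and -0.11 to 0.03 for Tet2, and in CD34+ cells -0.09 to 0.06 for Ezh2 and -0.02 to 0.14 for Tet1. On average they were -0.18 to 0.03 for Suz12, -0.05 to 0.08 for Tet1 and -0.00 to 0.14 for Tet2, and for the interaction -0.05 to 0.05 for Eed, -0.18 to 0.17 for Dnmt1, -0.01 to 0.18 for Tet1 and -0.06 to 0.10 for Tet3. The cause of these changes was not tested.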
